A study of Mus musculus with 4 samples.

Results

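Vasopressin, oxytocin and other neuroendocrine genes of the hypothalamus were followed across 4 RNA sequencing libraries of the parasubthalamic nucleus, a small cell group at the lateral edge of the posterior hypothalamus. The 8 genes are Avp and Oxt (peptide hormones), Avpr1a and Oxtr (their receptors), Ghrh and Trh (releasing hormones), Sim1 (a transcription factor) and Cga (a pituitary hormone subunit). They are 8 of 25044 entries in the deposited tables. They were chosen by their known roles and with their FPKM in these same libraries already seen, so the levels below are a description and carry no test. All libraries came from brain tissue of naive C57BL/6 mice, an inbred strain, and form 1 group, replicates 1 to 4, with neither treatment nor genotype to compare. The sources used here give no age and do not state whether each replicate is its own animal or pool, and the spread between replicates may be technical. The question asked of these genes was which library held medial hypothalamic tissue. No label names such tissue, and the levels below show only where its genes stood highest.

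Magnocellular neurons of the paraventricular and supraoptic nuclei make vasopressin or oxytocin and release them from axons in the posterior pituitary. Smaller neurons of the paraventricular and arcuate nuclei release factors such as TRH and GHRH into portal blood at the median eminence, which drive the hormone cells of the anterior pituitary. Vasopressin is also made in the suprachiasmatic nucleus. Of these, the paraventricular, arcuate and suprachiasmatic nuclei lie near the midline, medial to the parasubthalamic nucleus. The supraoptic nucleus is not among them, and the receptors are found in many brain regions.

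Values are read as FPKM, fragment numbers scaled by transcript length and library size, although neither labels nor file headers name the unit. Totals lay between 428612 and 442836 FPKM per library, of which mitochondrial genes took 19.1% to 22.2%, and the spacing of low values implied about 20000000 to 21400000 fragments per library. A gene was called high in a library when its value on the log2(FPKM + 0.1) scale was at least 1 above the highest of the other 3, and low when at least 1 below the lowest, among 17630 entries with a mean of 0.1 FPKM or more. All 8 genes passed that filter. Shares and percentiles of all entries given below are over these 17630. In these bulk samples, fewer cells of a type and less RNA per cell cannot be told apart.

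Avp and Oxt lie side by side on chromosome 2 (GRCm38) with 3565 bases between them. Oxt (ENSMUSG00000027301, 130576173 to 130577054) is on the plus strand and Avp (ENSMUSG00000037727, 130580620 to 130582554) on the minus strand, so the pair is transcribed towards each other. Cga (ENSMUSG00000028298) lies on chromosome 4 from 34893779 to 34907370, and a noncoding gene on the opposite strand, Platr9, overlaps it. Because these 3 genes were the ones called high in 1 library, the 250 bases before their RefSeq starts (GRCm38.p6) are shown 5′ to 3′ on the gene's strand. They are chr2:130582589-130582838 (minus) for Avp, chr2:130575919-130576168 (plus) for Oxt and chr4:34893529-34893778 (plus) for Cga. Capitals mark matches, on either strand, to an E-box CACGTG, a hormone receptor half-site TGACCT, a cAMP response element TGACGTCA and a TATA-like ATAAA.
Avp: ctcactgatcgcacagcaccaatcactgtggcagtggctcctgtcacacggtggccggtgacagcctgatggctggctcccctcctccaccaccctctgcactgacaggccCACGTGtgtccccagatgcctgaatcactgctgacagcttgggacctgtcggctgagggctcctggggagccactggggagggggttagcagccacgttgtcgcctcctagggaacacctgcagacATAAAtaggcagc
Oxt: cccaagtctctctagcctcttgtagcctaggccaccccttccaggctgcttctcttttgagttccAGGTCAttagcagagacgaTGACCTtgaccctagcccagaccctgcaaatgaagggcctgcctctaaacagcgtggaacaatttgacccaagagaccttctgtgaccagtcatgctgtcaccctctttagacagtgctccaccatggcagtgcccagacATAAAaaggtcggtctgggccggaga
Cga: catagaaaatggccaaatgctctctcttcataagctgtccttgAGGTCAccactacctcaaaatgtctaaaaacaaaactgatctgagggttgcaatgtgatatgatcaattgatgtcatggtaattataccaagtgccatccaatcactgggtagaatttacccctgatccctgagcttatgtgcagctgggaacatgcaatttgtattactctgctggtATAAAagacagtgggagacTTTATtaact

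The Avp window held CACGTG at 139 to 134 bases before the start, and the Oxt and Cga windows did not. The Oxt window held TGACCT once on the gene's strand, 166 to 161 bases before the start, and once on the opposite strand, 185 to 180 bases before it. The Cga window held the half-site on the opposite strand at 207 to 202 bases. All 3 windows held ATAAA on the gene's strand, at 13 to 9 bases in Avp, 26 to 22 in Oxt and 29 to 25 in Cga, and Cga also held its reverse complement at 10 to 6 bases. The TGACGTCA element had no match in the windows of any of the 8 genes. Outside these 3, Oxtr held CACGTG at 43 to 38 bases and the half-site at 98 to 93, Trh held the half-site at 57 to 52, and Ghrh held it in both of its windows. Of 32817 windows of the same length, 6.02% held CACGTG, 14.0% TGACCT, 1.55% TGACGTCA and 37.3% ATAAA. The matches describe the sequence only, and whether they bear on the levels was not tested.

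The hormone genes Avp and Oxt differed between libraries by far more than most genes, and replicate 2 stood highest for both. Avp, which encodes the vasopressin precursor, lay at 90.5 FPKM in replicate 2, against 2.17, 4.10 and 18.3 FPKM in replicates 1, 3 and 4. Replicate 2 was thus 4.94-fold above the next library and 41.7-fold above the lowest, and replicate 4 was the second highest. Oxt, which encodes the oxytocin precursor, lay at 44.0 FPKM in replicate 2, against 1.24, 1.11 and 3.28 FPKM in replicates 1, 3 and 4. That was 13.4-fold above the next library. The means were 28.8 ± 41.8 FPKM for Avp and 12.4 ± 21.1 FPKM for Oxt (SD, n = 4 each), so 1 library sets both means, and the medians were 11.2 and 2.26 FPKM.

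**Figure D1:**
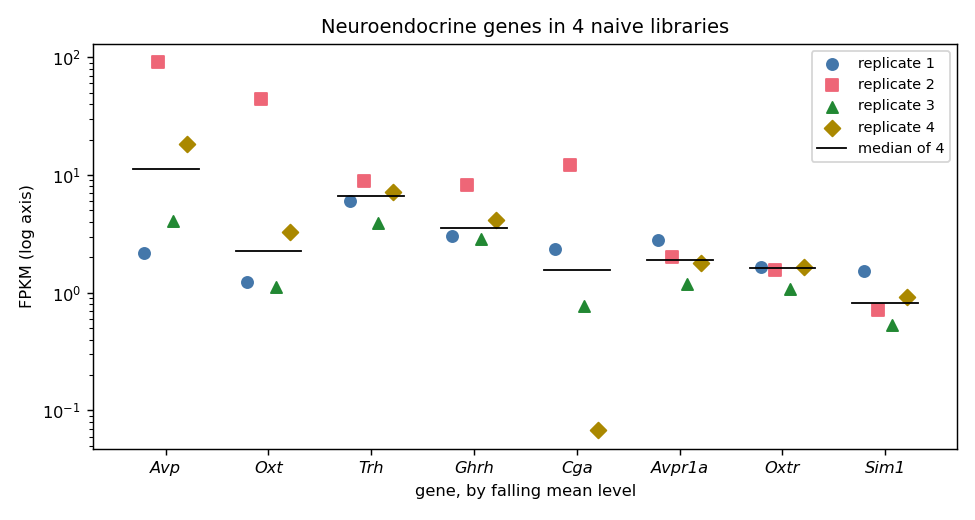
FPKM (log axis) of the 8 neuroendocrine genes in each of the 4 naive libraries, with 1 symbol per library and a line at the median. Replicate 2 stands at 90.5 FPKM for Avp and 44.0 for Oxt, above the other libraries, while the receptors Avpr1a and Oxtr stay between 1.08 and 2.78 FPKM in every library.

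Among the 17630 entries that passed the filter, Avp stood at percentile 96.0 in replicate 2, against 36.0, 47.2 and 78.1 in replicates 1, 3 and 4. Oxt stood at percentile 90.7 in replicate 2, against 28.8, 28.2 and 42.6. Both hormone genes therefore ranked among abundant transcripts in replicate 2 and below the middle of the filtered entries in replicates 1 and 3. Entries under the filter, which are lower, are left out of these ranks. The level of Avp exceeded that of Oxt in all 4 libraries, with a ratio of 2.06 in replicate 2, against 1.76, 3.69 and 5.59 in replicates 1, 3 and 4. The ratio between the hormones was thus not constant, and it was largest in replicate 4.

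Precision falls with the number of fragments behind a value. On the longest annotated transcripts, of 577 bases for Avp and 537 for Oxt, the values imply about 1084 and 491 fragments in replicate 2. The lowest values rest on about 27 fragments for Avp in replicate 1 and about 12 for Oxt in replicate 3. The transcripts also share sequence, as both encode a neurophysin carrier protein: 14.8% of the 50-base windows of the Avp transcript occur in that of Oxt, and the longest identical run is 127 bases. How the authors assigned such fragments is not given in the sources used here, so part of either value may belong to the other gene.

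The receptors of these hormones did not share the pattern of the peptides. Avpr1a (ENSMUSG00000020123, chromosome 10, 122448499 to 122453452) encodes the V1a vasopressin receptor, which acts through Gq proteins. It lay at 2.01 FPKM in replicate 2, against 2.78, 1.19 and 1.78 FPKM in replicates 1, 3 and 4. Oxtr (ENSMUSG00000049112, chromosome 6, 112473683 to 112489943), the oxytocin receptor, lay at 1.57 FPKM in replicate 2, against 1.67, 1.08 and 1.67 FPKM in replicates 1, 3 and 4. Both were lowest in replicate 3, and Avpr1a was highest in replicate 1, with Oxtr level between replicates 1 and 4, with means of 1.94 ± 0.657 and 1.50 ± 0.279 FPKM (SD, n = 4 each). The other receptors of this family, Avpr1b and Avpr2, were listed at 0 in 3 libraries each and at 0.0125 FPKM in replicate 4 and 0.0129 FPKM in replicate 3. In replicate 2 the level of Avp was 45.0-fold that of Avpr1a and the level of Oxt 28.0-fold that of Oxtr, whereas in replicate 1 each peptide lay below its receptor, at ratios of 0.782 and 0.741. An antisense gene, Gm48877, overlaps Avpr1a, and whether strand was used in counting is not stated.

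The releasing hormone genes were higher in replicate 2 by a smaller margin. Ghrh (ENSMUSG00000027643, chromosome 2, 157329497 to 157347506), which encodes growth hormone-releasing hormone of arcuate neurons, lay at 8.30 FPKM in replicate 2, against 3.02, 2.86 and 4.14 FPKM in replicates 1, 3 and 4. It lay 0.99 above the next library on the log2(FPKM + 0.1) scale, just outside the threshold of 1. Trh (ENSMUSG00000005892, chromosome 6, 92242061 to 92244650), which encodes thyrotropin-releasing hormone, lay at 8.88 FPKM in replicate 2, against 5.96, 3.88 and 7.18 FPKM in replicates 1, 3 and 4. Here the next library was 1.24-fold lower. Means were 4.58 ± 2.54 FPKM for Ghrh and 6.47 ± 2.10 FPKM for Trh (SD, n = 4 each), and Trh was above Ghrh in all 4 libraries.

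Sim1 followed another order. The gene (ENSMUSG00000019913, chromosome 10, 50894754 to 50989152) encodes a transcription factor that mouse paraventricular and supraoptic neurons need to form, and it is also expressed in other parts of the hypothalamus. Sim1 lay at 1.53 FPKM in replicate 1, against 0.709, 0.535 and 0.928 FPKM in replicates 2, 3 and 4. Replicate 2, the highest library for Avp and Oxt, was thus the second lowest for Sim1. The mean was 0.924 ± 0.432 FPKM (SD, n = 4), the lowest of the 8 genes. In the supramammillary and mammillary list, which includes Sim1, 6 of 10 genes tested were highest in replicate 1. The median difference from the mean of the other libraries, on the log2(FPKM + 0.1) scale, was 0.57 in replicate 1, against -0.03, -0.51 and 0.12 in replicates 2, 3 and 4.

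Cga, the alpha subunit shared by thyrotropin, luteinizing hormone and follicle-stimulating hormone, had the widest range of the 8. It lay at 12.1 FPKM in replicate 2, against 2.34, 0.772 and 0.0676 FPKM in replicates 1, 3 and 4. Replicate 2 was 5.16-fold above the next library, and replicate 4 was low, where its value corresponds to about 1 fragment. Cga and the hormone peptides therefore parted in replicate 4, which was the second highest library for Avp and Oxt and the lowest for Cga. Cga averaged 3.81 ± 5.59 FPKM (SD, n = 4).

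By mean level the order was Avp, Oxt, Trh, Ghrh, Cga, Avpr1a, Oxtr and Sim1, but the ranges of all 7 neighbouring pairs overlapped. In 4 of the pairs the order was the same in all 4 libraries, namely Avp over Oxt, Trh over Ghrh, Avpr1a over Oxtr and Oxtr over Sim1. Oxt was above Trh in 1 library and Cga was above Avpr1a in 1 library, replicate 2 in both cases, and Ghrh was above Cga in 3. The places of Oxt and Cga in the order thus came from 1 library.

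Of the 8 genes, 3 (Avp, Oxt and Cga) were called high in replicate 2, where 0.715% of all entries were, and 1 (Cga) was called low in replicate 4, where 0.63% were. None was called in replicates 1 or 3, where 0.811% and 1.1% of all entries were called high and 0.908% and 1.09% low. The members were picked for such differences, so nothing is read from these counts. Replicate 2 held the highest value of 5 of the 8 (29.1% of all entries) and replicate 1 that of the other 3 (26.9%). Replicate 3 held the lowest value of 6, and the share of all entries lowest there is not given, so nothing is read from that count. The log2 range between the highest and the lowest library placed Cga, Avp and Oxt at percentiles 99.97, 99.9 and 99.9 of all entries, with Ghrh at 91.1, Sim1 at 89.6, Trh at 86.6, Avpr1a at 86.4 and Oxtr at 67.2. Without replicate 2, Avp and Oxt were both high in replicate 4 and Cga was high in replicate 1, and without replicate 4 Ghrh was also called high in replicate 2 and Sim1 in replicate 1. Low calls were added too. Avp and Oxt were both low in replicate 3 without replicate 1, and both low in replicate 1 without replicate 3. Cga was low in replicate 3 without replicate 4.

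Other genes of the same nuclei were examined to see which moved with the hormones. In the arcuate list all 14 genes tested, Ghrh among them, were higher in replicate 2 than the mean of the other libraries. The median difference was 1.08 on the log2(FPKM + 0.1) scale. Over all entries the medians were -0.0006, 0.04, -0.05 and 0.01 in replicates 1, 2, 3 and 4. The share of all entries above the mean of the others is not given, so nothing is read from such counts here and below. For the calls here and below, 0.715% of all entries were high in replicate 2, and 1.1% were high and 1.09% low in replicate 3. Pomc, the precursor of melanocortins and of pituitary ACTH, lay at 30.1 FPKM in replicate 2, against 8.65, 2.83 and 5.70 FPKM in replicates 1, 3 and 4. Agrp, the melanocortin antagonist of hunger-promoting arcuate neurons, lay at 8.63 FPKM in replicate 2, against 2.20, 0.666 and 1.45 FPKM. Npy, the neuropeptide Y gene, lay at 41.0 FPKM in replicate 2, against 20.7, 16.4 and 18.3 FPKM, short of the threshold. Pomc, Agrp and the homeobox gene Six6 were called high, and Agrp, Six6, the kisspeptin gene Kiss1 and the estrogen receptor gene Esr1 were called low in replicate 3. Tac2 and Kiss1 were exceptions among the peptides. Tac2, the neurokinin B gene, was highest in replicate 1, at 31.4 FPKM, against 24.0, 11.9 and 19.8 FPKM in replicates 2, 3 and 4. Kiss1 was highest in replicate 4, at 0.215 FPKM, against 0.195, 0.169 and 0 FPKM in replicates 1, 2 and 3.

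**Figure D2:**
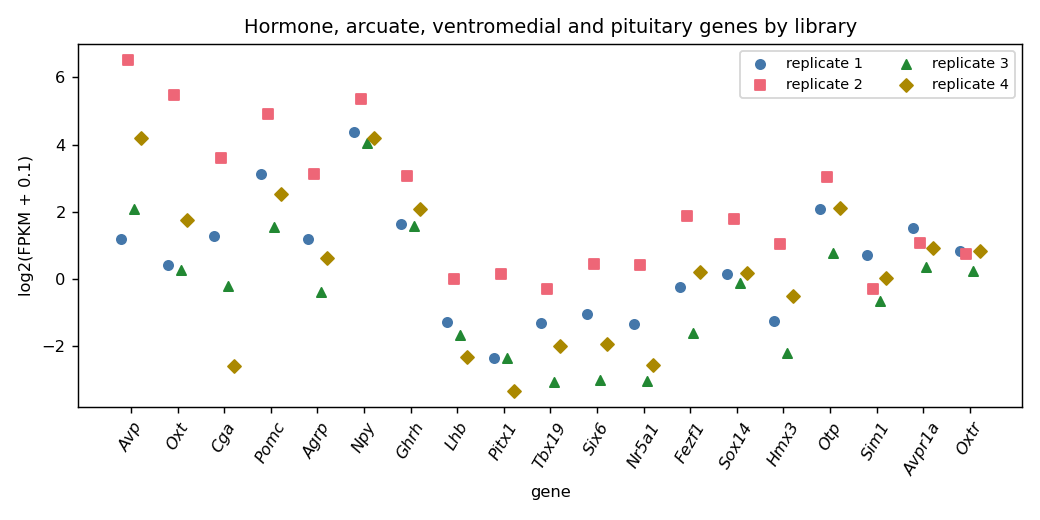
Level on the log2(FPKM + 0.1) scale of hormone, arcuate, ventromedial, dorsomedial and pituitary genes in each of the 4 libraries, with 1 symbol per library. Replicate 2 is the highest for Avp to Otp, whereas for Sim1, Avpr1a and Oxtr, at the right, it lies among or below the others. The genes shown were picked with their values known. Genes of the same lists that were not highest in replicate 2, such as Tac2, Kiss1, Nkx2-1 and Tshb, are not shown.

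In the ventromedial list 8 of 9 genes tested were above the mean of the others in replicate 2. Of these 9, 4 were called high in replicate 2, where 0.715% of all entries were, and the median difference was 0.90. Fezf1, a zinc finger factor of ventromedial neurons, lay at 3.58 FPKM in replicate 2, against 0.750, 0.231 and 1.06 FPKM in replicates 1, 3 and 4. Nr5a1, the steroidogenic factor gene that ventromedial neurons and pituitary gonadotropes both need, lay at 1.22 FPKM in replicate 2, against 0.292, 0.0229 and 0.0687 FPKM. Sox14 lay at 3.34 FPKM in replicate 2, against 1.02, 0.824 and 1.03 FPKM. In the dorsomedial list 4 of 7 genes tested were highest in replicate 2, and the median difference was 0.84. Only the homeobox gene Hmx3 was called high there, at 1.97 FPKM against 0.322, 0.118 and 0.604 FPKM. The most abundant genes of that list had other orders. Cck lay at 71.1 FPKM in replicate 2, against 58.1, 144 and 84.5 FPKM in replicates 1, 3 and 4, and Grp at 8.11 FPKM, against 8.17, 5.73 and 7.03 FPKM. Not every ventromedial gene was highest in replicate 2, where 5 of the 9 tested were. Nkx2-1, a homeobox gene of the ventral hypothalamus, lay at 8.39 FPKM in replicate 2, against 10.2, 4.55 and 6.63 FPKM in replicates 1, 3 and 4. Bdnf lay at 5.41 FPKM in replicate 2, against 9.09, 5.37 and 7.41 FPKM, and Nptx2 at 5.62 FPKM, against 4.13, 6.36 and 4.32 FPKM.

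Among regulators of paraventricular and magnocellular neurons, 1 of 13 tested was called high in replicate 2, the secretagogin gene Scgn, and the median difference was 0.17. Otp, a homeobox gene that Avp, Oxt and Trh neurons of the mouse need, lay at 8.15 FPKM in replicate 2, against 4.16, 1.61 and 4.20 FPKM in replicates 1, 3 and 4. Arnt2, the partner protein of SIM1, lay between 37.4 and 46.7 FPKM in all 4 libraries. Gal, the galanin gene, lay at 23.1 FPKM in replicate 2, against 11.7, 4.53 and 14.2 FPKM. Replicate 3 was the lowest library for Otp, Gal, Scgn and Fezf2, all called low there. Crh, the corticotropin-releasing hormone gene of paraventricular neurons, lay at 1.79 FPKM in replicate 2, against 2.15, 1.50 and 2.29 FPKM. The suprachiasmatic list had 1 of 11 tested genes called high in replicate 2, Six6, with a median difference of 0.22. Vip, its vasoactive intestinal peptide gene, lay at 3.43 FPKM in replicate 2, against 1.56, 1.56 and 2.69 FPKM in replicates 1, 3 and 4.

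The pituitary lists were set beside Cga. The hormone list holds Cga itself, chosen with its values seen, and Pomc, which is also in the arcuate list, so its counts are not independent of either. Of 7 hormone genes 4 passed the filter. Of these, 3 were called high in replicate 2, where 0.715% of all entries were, namely Cga, Pomc and the luteinizing hormone subunit gene Lhb. Lhb lay at 0.891 FPKM in replicate 2, against 0.312, 0.217 and 0.1004 FPKM in replicates 1, 3 and 4. Tshb, the thyrotropin subunit gene, lay at 0.726 FPKM in replicate 2, against 0.431, 0.749 and 0.331 FPKM, and did not follow Cga. Gh and Prl, the growth hormone and prolactin genes that are very abundant in the anterior pituitary, lay at 0.213 and 0.0510 FPKM in replicate 2 and were listed at 0 in the others. Fshb lay at 0.166 FPKM in replicate 2 and at 0.0586 FPKM or lower elsewhere. The whole hormone list summed to 44.3 FPKM in replicate 2, against 4.57 to 11.8 FPKM in the others, with Pomc and Cga making up most of it.

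Of 14 pituitary transcription factors and receptors 10 passed, and 5 were called high in replicate 2, where 0.715% of all entries were. Pitx1, a homeobox gene of the whole anterior pituitary, lay at 1.00 FPKM in replicate 2, against 0.0968, 0.0948 and 0 FPKM in replicates 1, 3 and 4. Tbx19, the factor of Pomc-expressing pituitary cells, lay at 0.709 FPKM in replicate 2, against 0.304, 0.0193 and 0.152 FPKM. Pax7, Nr5a1 and Six6 were the others. Nr5a1 is also in the ventromedial list and Six6 in the arcuate and suprachiasmatic lists, so this count is not independent of theirs. Gata2 and Eya3, more abundant genes of the list, were highest in replicate 2 but not called. Gata2 lay at 3.53 FPKM there, against 2.11, 2.64 and 2.38 FPKM in replicates 1, 3 and 4, and Eya3 at 5.73 FPKM, against 5.06, 4.64 and 4.57 FPKM. The lineage genes Pou1f1 and Hesx1 lay at 0 FPKM in replicate 2 and at 0.0277 FPKM or lower elsewhere. What part pituitary cells have in the Cga values was not tested.

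Tanycytes, the lining cells of the third ventricle floor, and pituicytes of the posterior pituitary were followed through their markers. All 12 tanycyte and median eminence genes were higher in replicate 2 than the mean of the others, by a median of 0.56, and 1, Fndc3c1, was called high. Only 7 of the 12 were highest in replicate 2, and Nkx2-1 (above) was not. The list stood at -0.62 in replicate 3, which lowers the mean that replicate 2 is set against. Rax, a homeobox gene of tanycytes and pituicytes, lay at 1.43 FPKM in replicate 2, against 0.885, 0.247 and 0.778 FPKM in replicates 1, 3 and 4. Gpr50 lay at 6.00 FPKM in replicate 2, against 3.20, 0.290 and 2.20 FPKM, and both were called low in replicate 3. Crym was level in replicates 2 and 4, at 7.77 and 8.47 FPKM, against 1.98 and 0.955 FPKM in replicates 1 and 3. All 7 pituicyte genes were above the mean of the others in replicate 2, by a median of 0.42, with 4 highest there and none called high.

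**Figure D3:**
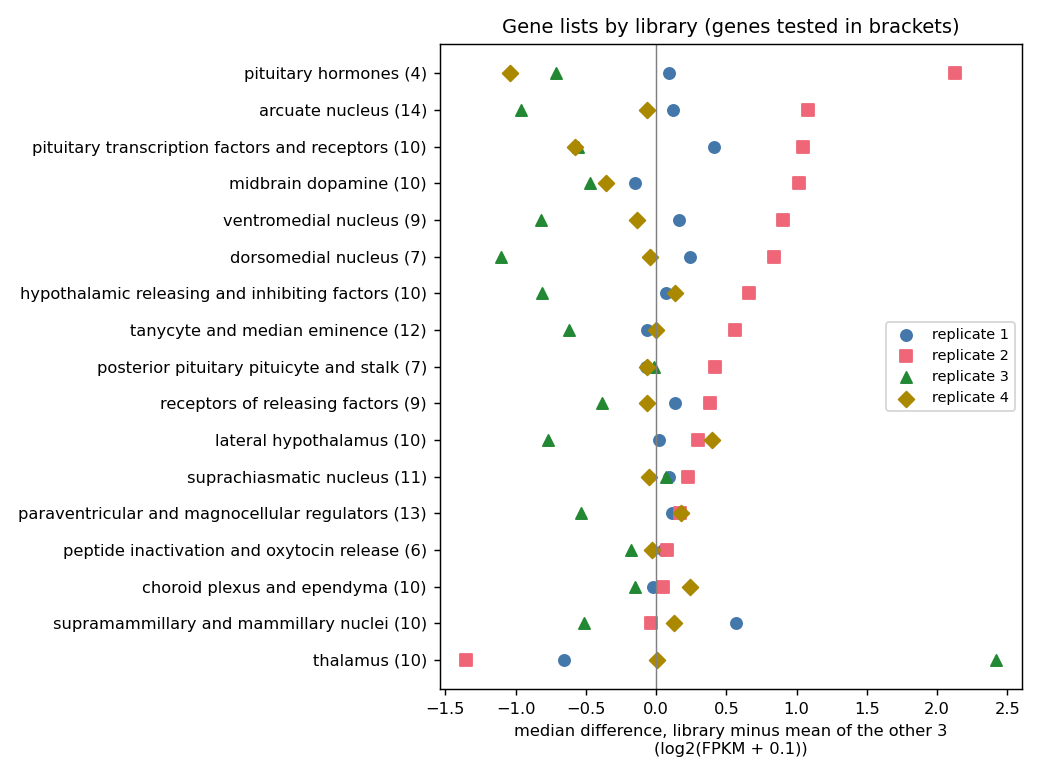
For each gene list, the median over its genes of 1 library minus the mean of the remaining 3, in log2(FPKM + 0.1), with 1 symbol per library and the number of genes tested in brackets. Pituitary hormones (2.13) and the arcuate list (1.08) stand highest in replicate 2, and the thalamus list stands at 2.42 in replicate 3. The pituitary hormone list includes Cga and the arcuate list includes Ghrh.

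Other tissue also varied between the libraries, and its part in the results above was not tested. In replicate 2 all 10 midbrain dopamine markers were above the mean of the other libraries, by a median of 1.01, and the list summed to 790 FPKM, against 369 to 424 FPKM. The dopamine transporter gene Slc6a3 and the homeobox gene En1 were called high there. The thalamus list was at -1.35 in replicate 2, with Gbx2 and Rora called low where 0.505% of all entries were. It was at 2.42 in replicate 3, with 8 of 10 genes called high where 1.1% of all entries were. Choroid plexus and ependymal genes were at 0.05 in replicate 2 with none called high. In replicate 4 the choroid gene Ttr and the urocortin gene Ucn3 were called high, where 0.545% of all entries were. Over all 146 genes of the lists other than the 8, 133 passed the filter. Shares in brackets are those of all entries called alike in the same library. Replicate 2 had 16 high calls (0.715%), replicate 3 had 9 (1.1%), replicate 4 had 2 (0.545%) and replicate 1 had 0 (0.811%). Low calls numbered 16 in replicate 3 (1.09%), 2 in replicate 2 (0.505%) and 1 each in replicates 1 (0.908%) and 4 (0.63%).

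In the lateral hypothalamus list, for the region next to the parasubthalamic nucleus, 6 of 10 genes tested were above the mean of the others in replicate 2, by a median of 0.30, with none called high. Galanin (Gal, above) was highest in replicate 2, whereas the orexin gene Hcrt lay at 7.72 FPKM in replicate 2, against 119, 2.60 and 91.4 FPKM in replicates 1, 3 and 4. Pmch, the melanin-concentrating hormone gene, was at 257 FPKM in replicate 2, against 325, 54.9 and 429 FPKM. Hcrt and Pmch thus had another order of libraries than Avp and Oxt.

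Among receptors of releasing factors none of 9 tested was called high in replicate 2, and the corticotropin-releasing hormone receptor gene Crhr2 was called low in replicate 3. Trhr, a TRH receptor gene, lay at 2.42 FPKM in replicate 2, against 2.90, 1.50 and 3.60 FPKM in replicates 1, 3 and 4. The receptors for GHRH and GnRH, which pituitary cells carry, were at 0 FPKM in replicate 2 and at 0.0281 FPKM or lower elsewhere. Of the 6 genes for peptide inactivation and oxytocin release none was called high in replicate 2. Lnpep, the aminopeptidase that cleaves oxytocin and vasopressin, lay between 9.86 and 11.4 FPKM in all 4 libraries. Cd38, which oxytocin release in mice depends on, lay at 9.75 FPKM in replicate 2, against 10.3, 6.93 and 6.96 FPKM.

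The profile of each gene over the 4 libraries was compared with those of 13014 other named genes that reached 1 FPKM in at least 1 library, by the root mean square difference of the log2 profiles after centring each on its mean. With 4 points many genes lie close to any modest profile, so this is a description. The nearest to Avp was Oxt, at 0.66, and the nearest to Oxt was Avp, followed by Tph2, the serotonin synthesis enzyme gene, at 0.83. Next to Avp came Gm28036 at 0.97, the chemokine gene Cxcl13 at 1.02, B3gnt2 at 1.08 and Zfp82 at 1.10. Oxt was further followed by Gm28036 at 0.89, the paired-box gene Pax5 at 0.92 and Prlh, the prolactin-releasing hormone gene, at 1.02. Cga had Bpifa1 at 0.90 as its nearest, then Gm7324 at 0.97, Ces1d at 1.04, Gm21748 at 1.05 and Pitx1 at 1.16.

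**Figure D4:**
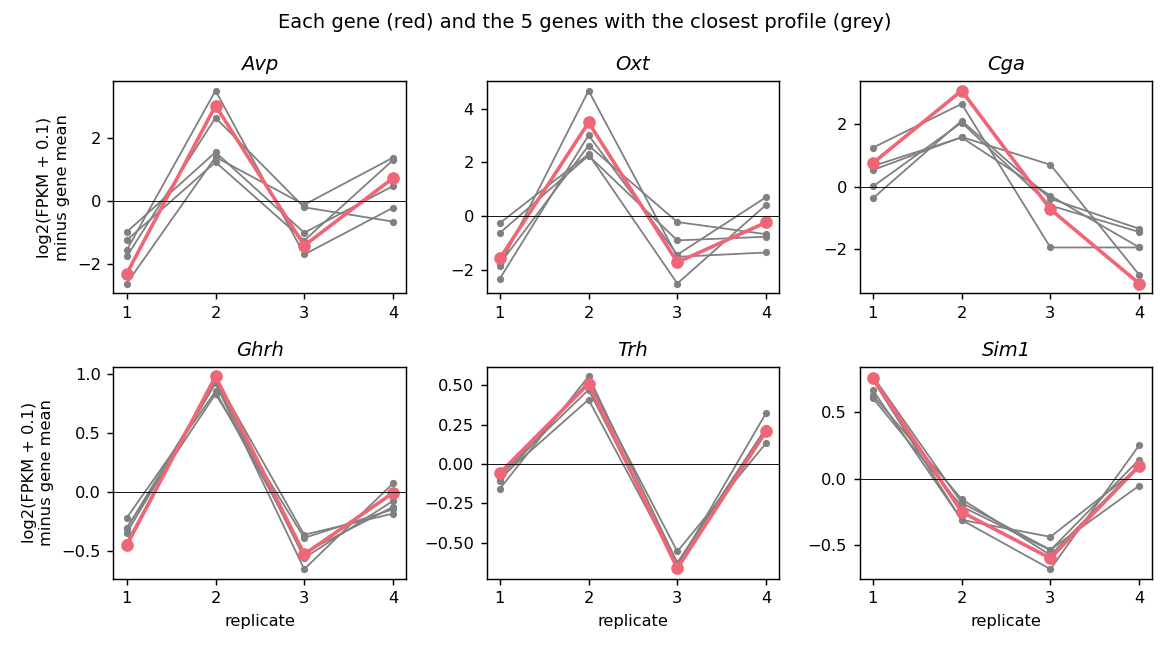
Log2(FPKM + 0.1) minus the gene's own mean in replicates 1 to 4, for 6 of the genes (red) and the 5 genes nearest to each (grey). Lines only join the values of a gene, and the vertical scales differ. Avp and Oxt peak in replicate 2, while Sim1 stands highest in replicate 1.

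The genes with a modest range had closer neighbours. Ghrh was followed by the channel gene Trpc6 at 0.08, Isl1 at 0.10, Chrna5 at 0.12, Vill at 0.14 and Tbx3 at 0.14, and the homeobox gene Isl1 and the T-box gene Tbx3 are also members of the arcuate list. Isl1 lay at 5.40 FPKM in replicate 2, against 2.19, 1.75 and 2.96 FPKM in replicates 1, 3 and 4. Sim1 had Hist1h2bj at 0.08 as its nearest, then Adcyap1, the gene of the peptide PACAP that the series is about, at 0.09, Gm35549 at 0.09, Dmrta2 at 0.09 and Gm4881 at 0.10. Adcyap1 lay at 58.1 FPKM in replicate 1, against 33.0, 26.2 and 42.1 FPKM in replicates 2, 3 and 4, the same order of libraries as Sim1. Trh had Gm10260 at 0.01, the potassium channel gene Kcna5 at 0.03, Ano7 at 0.06, Slc44a5 at 0.07 and Tmem158 at 0.08. Avpr1a had Nr4a2 at 0.04, Zfp184 and Fgf20 at 0.06 and Gpr83 and Sall3 at 0.07. Oxtr differed by less than 1 between its highest and lowest library, and no neighbours were sought.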

How the data were processed

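RNA was taken from brain tissue of naive mice with TRIzol and made into mRNA libraries, per the labels' protocols. The deposited values were read as FPKM from their behaviour, since no label or header states a unit: the values have decimals, and library totals differ. The build is GRCm38, per the submitters' processing notes, and what aligned and counted the reads, and whether strand was kept, is not given in the sources used here. Of 25044 entries, 22036 carry Ensembl identifiers, and 22022 were matched to GENCODE M21 for symbols and coordinates. The third replicate was placed by its title, as its column is headed with a letter.

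The genes and the lists were chosen with earlier results of these data known. The 17630 entries averaging at least 0.1 FPKM were tested, set as log2(FPKM + 0.1), which understates differences of low genes. Fragment numbers came from the spacing of low values in genes with 1 transcript and are approximate, so no counting intervals were computed. No sample-level test was possible with 1 group, and the high and low calls describe single libraries. Genes named are the 8 members, genes of the lists that were called or among the 3 most abundant of their list, and the 5 nearest profiles. Crh, Gnrh1, Trhr, Vip, Crym, Gh, Prl, Fshb, Avpr1b, Pou1f1, Hesx1, the GHRH and GnRH receptor genes and Slc6a4 fall outside that rule and were picked with their values known. Some genes counted in the lists are not reported here by name or value. Promoters of all 8 genes were found in the RefSeq table (GRCm38.p6). Calculations ran in Python 3.11.15 with pandas 2.3.3 and numpy 2.4.6, and figures in matplotlib 3.10.9. Alternatives covered the added constant, the filter, the scaling of libraries, the fold threshold, the library set against and leaving out each replicate.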

Additional observations from a re-analysis of the deposited data

Results flagged for a closer look

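In 22 of 110 genes a single library stood apart by Dixon's criterion, which sets its gap to the nearest library against the whole range, where chance gives about 5%; the genes are not independent, and many were named because 1 library stood out. Replicate 2 accounted for 13 of these, replicate 3 for 7, replicate 4 for 2 and replicate 1 for 0.

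Among the neuroendocrine genes, Oxt in replicate 2 (44.0 FPKM against 1.11 to 3.28) and Oxtr in replicate 3 (1.08 FPKM against 1.57 to 1.67) were set apart. Avp was not, because replicate 4 also lay above replicates 1 and 3. Of hypothalamic and pituitary genes, replicate 2 held Pitx1 at 1.00 FPKM against 0 to 0.0968 and Sox14 at 3.34 against 0.824 to 1.03.

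Dopamine markers in replicate 2 were Th at 223 FPKM against 103 to 118, Slc6a3 at 195.9 against 88.9 to 92.5 and Ddc at 174 against 77.8 to 88.3. Of genes tied to serotonin, the same library held Tph2 at 26.7 FPKM against 0.198 to 0.319 and Slc6a4 at 16.7 FPKM against 0 in the others. Genes of like profile there were Gm28036 at 1.99, Pax5 at 2.36, Chrna5 at 4.21, Vill at 1.60 and Ces1d at 2.95 FPKM.

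In replicate 3, thalamic genes stood apart, with Prkcd at 172 FPKM against 3.72 to 13.4, Ramp3 at 61.4 against 3.45 to 8.06, Plekhg1 at 17.2 against 3.24 to 3.98 and Lef1 at 10.1 against 3.01 to 3.31. Rgs16 was at 35.7 FPKM against 4.55 to 8.22, and Avpr2 at 0.0129 FPKM against 0. With the other 3 libraries at 0, as for Avpr2 and Slc6a4, any value above 0 stands apart by construction, and Avpr2 lay below the filter on low values, so its entry carries no weight. In replicate 4, Ttr was at 49.7 FPKM against 0.587 to 1.99 and Ucn3 at 0.890 against 0 to 0.0651. What sets these libraries apart was not tested.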

How the results depend on the processing

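Avp, Oxt and Cga were called high in replicate 2 under every alternative run that keeps that library, and Ghrh was added with 0.01 in place of 0.1 added to the values. Set against the mean of the other libraries instead of the nearest, the calls on the 8 genes numbered 11 in place of 4, with Ghrh and Sim1 added, and those on the genes of the other lists 106 in place of 47. Of these list genes, 32 were then high in replicate 2 and 29 low in replicate 3, in place of 16 each. With 1 added in place of 0.1 the list calls were 22, with 6 high in replicate 2 and 4 low in replicate 3. With a mean of 1 FPKM or more required they were 29, 7 and 9, and at a threshold of 4-fold 11, 1 and 2. These counts therefore rest on low genes and on the threshold. Scaling the nuclear genes to 1 fixed total per library changed the unit of the levels, with means of 83.2 for Avp, 35.9 for Oxt, 5.63 for Avpr1a, 4.35 for Oxtr, 13.3 for Ghrh, 18.8 for Trh, 2.68 for Sim1 and 11.0 for Cga. Leaving out each replicate gave 16 to 25 list genes low in replicate 3, with 25 reached without replicate 4.

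No paired analysis was possible because the samples form 1 group. Depth limits the low values, such as Cga in replicate 4 on about 1 fragment. FPKM carry no counts, so counting error could not be separated from the spread between libraries.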

Other observations

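Of 2 genes of serotonin neurons looked at, Slc6a4, the serotonin transporter gene, was listed at 0 outside replicate 2, and Tph2 was the second nearest profile to Oxt. Slc6a4 was picked with its values known, no list of serotonin genes was examined, and their part in the hormone values was not tested.

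Prlh, whose neurons lie in the dorsomedial hypothalamus and the brainstem, was at 2.68 FPKM in replicate 2, against 0.373, 0 and 0.655 FPKM in replicates 1, 3 and 4. Gnrh1, the gonadotropin-releasing hormone gene, was at 0.770 FPKM in replicate 2, against 0.356, 0.111 and 0.213 FPKM. Npvf, the gene of the RFamide peptide of dorsomedial neurons, split the libraries another way, at 5.69 FPKM in replicate 2 and 5.90 in replicate 1, against 1.30 and 1.50 FPKM in replicates 3 and 4.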
